A study of Mus musculus with 3 samples.

Results

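Ductal cells of the mouse pancreas that carried a deletion of Fbw7 were compared with ductal cells that kept the gene, on 1 array each. The comparison is the log2 level in the deleted cells minus the log2 level in the wild-type cells. A gene was measured by its single-gene probe set, or by the one with the highest mean over the 3 arrays where it had several, and was kept if the higher of its 2 ductal levels exceeded a floor, the middle level of the single-gene probe sets of the array in question. This kept 10035 of 19938 genes. The floor was 5.23 on the wild-type and 5.24 on the deleted ductal array, on the log2 scale of robust multi-array averaging (RMA) on which all levels below are given.

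The wild-type ductal group was Fbw7 +/+; Ck19-CreERT; R26-LSL-YFP and the deleted group carried F/F alleles of Fbw7 beside the same Ck19-CreERT and R26-LSL-YFP, both on a C57BL/6 background and from mice over 6 weeks old. Both groups carried the same keratin 19 promoter-driven, tamoxifen-inducible Cre and the same Cre-activated yellow fluorescent reporter. Both received tamoxifen on 5 days in a row and were collected 7 days after the last injection. By the labels the Cre transgene, the reporter and the tamoxifen schedule were shared, and the Fbw7 alleles differed. How far Cre acted in each pool was not measured here. Each group was 1 pool of cells from 6 mice, so animals cannot be told apart, and a gene's difference has no replicate check. The third array of the series, cells sorted from 3 untreated Fbw7 +/+; MIP-GFP mice as beta cells, is given only for orientation. For each array 30000 cells were sorted and 18 ng of RNA was amplified. In a pool of sorted cells, fewer cells of a type and less RNA per cell cannot be told apart.

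Fbw7, encoded by Fbxw7, is the F-box protein that brings phosphorylated substrates to an SCF ubiquitin ligase, built from Skp1, Cul1 and Rbx1. Its substrates include Myc, Jun, cyclin E and the intracellular part of Notch, and its loss acts first on the stability of those proteins, which an array of transcripts does not measure. Pancreatic ducts are lined by an epithelium that secretes bicarbonate-rich fluid and carries the enzymes made by acinar cells towards the gut. Duct identity is kept by transcription factors such as Sox9 and Onecut1, and ductal, acinar and endocrine cells descend from common progenitors.

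The ductal label was checked against marker genes. Of 11 measured duct markers, 9 lay above the floor on the wild-type array and 10 on the deleted array. Cftr, the chloride channel of duct cells, was below it on both (4.95 and 5.13), and Prom1 only on the wild-type array (4.91 against 6.78). The median of the 11 markers was 7.29 in wild-type and 8.79 in deleted cells, and their summed level 11.42 and 12.46 (log2 of the sum of the linear levels). Krt19, the keratin whose promoter drives the Cre, read 9.13 and 9.53. Most but not all duct markers were thus above the floor. Against the beta cell array, wild-type cells read no higher for Epcam (5.42 on both), Cdh1 (6.54 against 6.92) and Muc1 (6.55 against 6.74). Cftr and Prom1 were level on these 2 arrays, while Krt19, Krt7, Krt8, Krt18, Sox9 and Tspan8 read higher in wild-type ductal cells. The marker levels thus leave the purity of the ductal pools open.

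Markers of other cell types were also present, and they did not all move in one direction. All 8 mesothelial markers, of the cells that cover the organ's surface, were above the floor on both ductal arrays, from 9.71 to 10.6 in wild-type and from 9.40 to 10.7 in deleted cells. Their summed level was 13.30 and 13.24. Fibroblast markers had a median of 9.48 in wild-type and 7.94 in deleted cells, with 7 and 6 of 8 above the floor and summed levels of 13.18 and 12.53. Acinar markers had medians of 9.79 and 11.4, with 6 of 8 above the floor on both arrays and summed levels of 13.33 and 14.46. Of these, the acinar transcription factors Ptf1a and Rbpjl were below the floor on both arrays and Bhlha15 was identical at 5.38, so the acinar markers above the floor that were higher were all enzymes. None of 5 leukocyte markers was above the floor on either ductal array, against 3 on the beta cell array, and 2 of 8 macrophage markers, Cd68 and Csf1r, were above it on both. Adgre1, Lyz2 and C1qa, which define macrophages, read 3.10, 3.02 and 4.48 in wild-type cells, all below the floor. Of 5 endothelial markers, Kdr and Esam were above the floor on both ductal arrays and identical on them. On both ductal arrays the summed levels of the acinar, mesothelial and fibroblast markers were each above that of the duct markers. The part of acinar, fibroblast, mesothelial and other non-duct cells in the differences below was not tested.

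**Figure D1:**
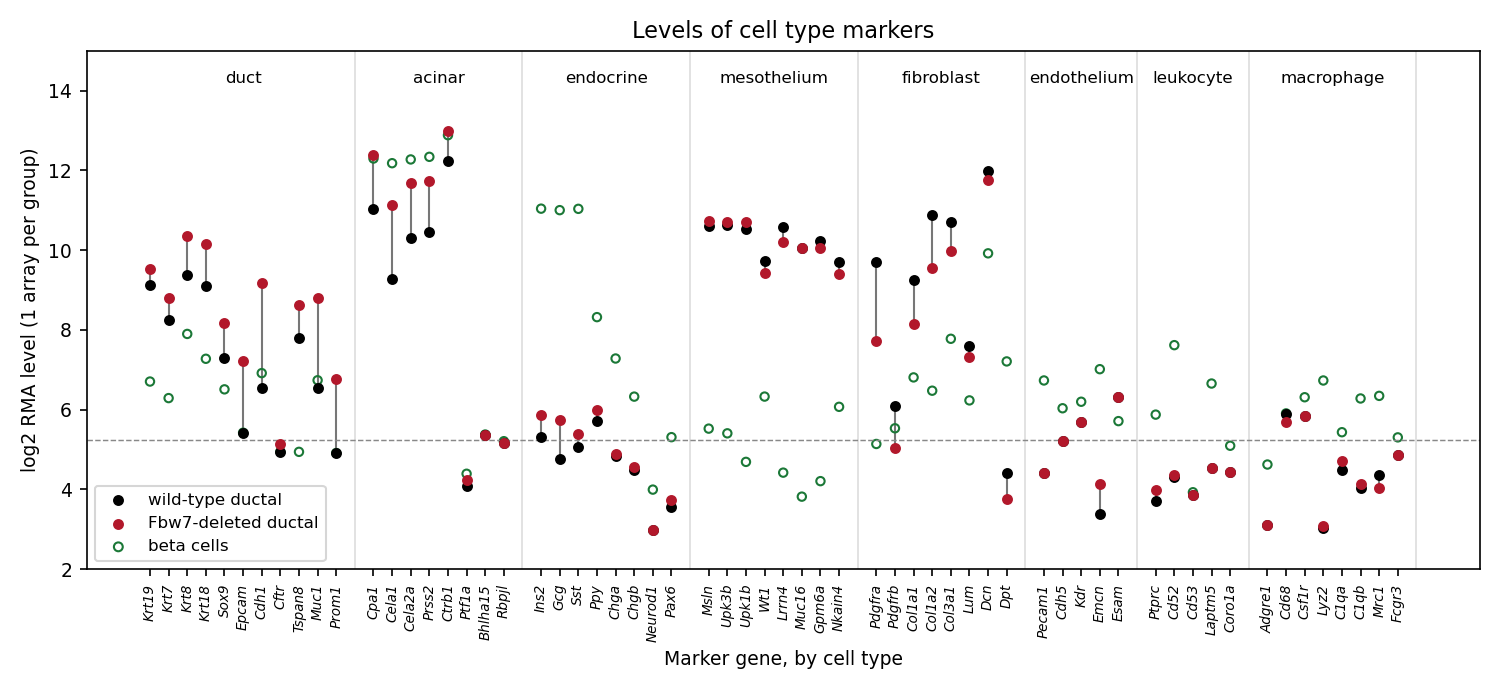
Levels of cell type markers on the log2 RMA scale (vertical axis) for single marker genes grouped by cell type (horizontal axis); black points are the wild-type ductal array, red points the deleted ductal array, open green points the beta cell array and the dashed line the wild-type floor of 5.23. Duct and acinar markers read higher and fibroblast markers lower on the deleted array, while the 8 mesothelial markers stay between 9.40 and 10.7 on both.

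At least 2-fold separated the ductal arrays for 326 genes (3.25% of those above the floor). Of these, 144 (1.43%) read higher in deleted cells and 182 (1.81%) lower. Both shares are the background for the list counts below. Past 4-fold stood 41 genes (0.409%) on the higher and 15 (0.149%) on the lower side, while at 1.5-fold there were 282 higher and 728 lower. After the 2 ductal arrays and the beta cell array were quantile-normalized together, 140 genes were past 2-fold on the higher and 92 on the lower side, so the higher share of the calls moved from 44.2% to 60.3%. All 182 genes kept a negative sign under that scaling, with a median of -1.005 in place of -1.22. Counts of lower genes thus hold relative to the deposited scale, and those near 2-fold most of all.

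Exact equality was the most common outcome. In 4841 genes (48.2%) the ductal levels were identical to the last digit deposited, 3551 (35.4%) were lower in deleted cells by some amount and 1643 (16.4%) higher. The share of identical genes was 62.8% in the lowest of 4 equal bins of mean level and 21.2% in the highest. RMA fits array effects by medians, which can return equal values when few arrays are fitted; whether that made these ties was not tested. A difference of 0 in the lists below is such a tie and need not mean equal RNA, and list medians of 0 reflect these ties. Without identical genes the median over all genes was -0.13.

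The genes that differed had modest levels in the array where they were low. The 144 higher genes had a median of 5.69 in wild-type, 7.64 in deleted and 6.07 in beta cells, and 46 of them lay below the floor in wild-type cells. The 182 lower genes had medians of 7.75, 6.37 and 5.63, and 36 lay below the floor in deleted cells. Where one level was below its floor, the fold is given against the floor as "at least".

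**Figure D2:**
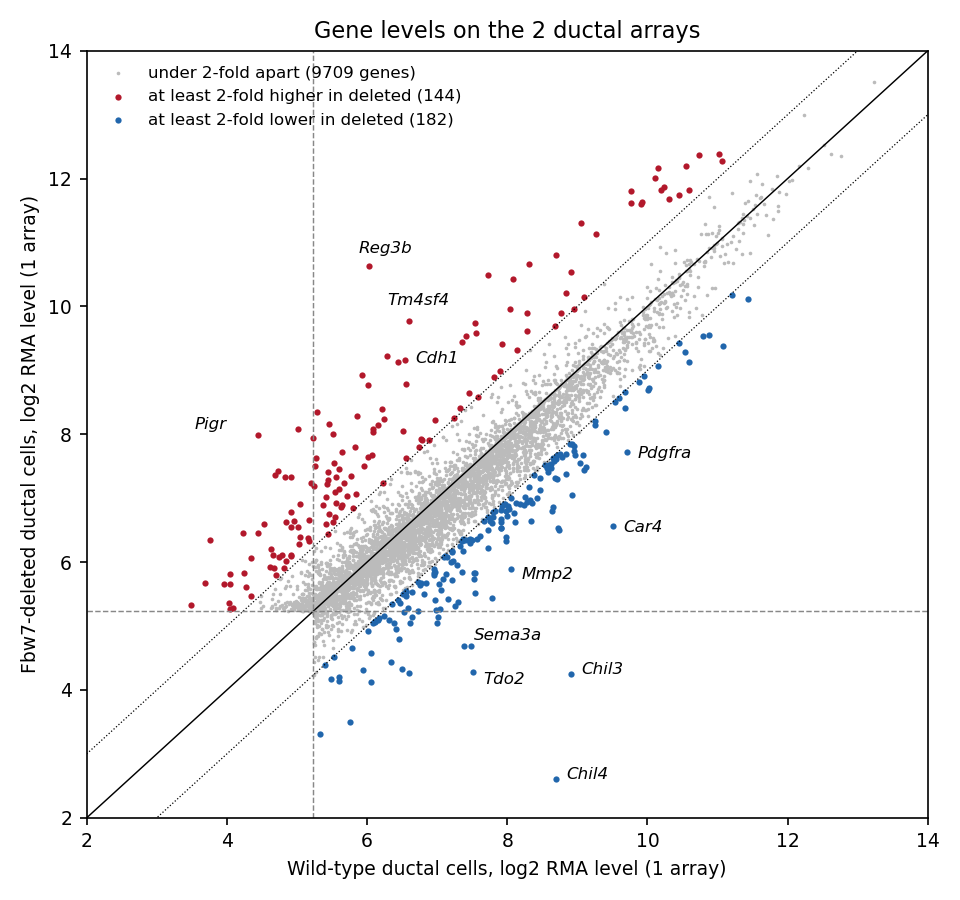
Log2 RMA level of 10035 genes in wild-type (horizontal axis) and Fbw7-deleted ductal cells (vertical axis), 1 array each; red and blue points are the 144 higher and the 182 lower genes past 2-fold, dotted lines mark 2-fold and dashed lines the floors. Reg3b stands highest above the diagonal and Chil4 and Chil3 lie farthest below it.

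The targeted gene and its complex came first. Fbxw7 read 6.32 in wild-type and 5.71 in deleted cells, a difference of -0.61, on the probe set used; the other read 4.95 on every array. The sources used here do not say whether these probes lie inside the floxed exons, so they do not check the deletion. Of 13 ligase partner genes above the floor, 0 were 2-fold apart. Cul1, the scaffold, was identical at 7.66, Rbx1, the RING subunit, read 8.06 and 8.04, and Skp1, the adaptor, 8.52 and 8.16. The ubiquitin-conjugating enzyme Ube2r2 had the lowest difference of the list, -0.65.

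Of 28 Fbw7 substrate genes above the floor, 0 were 2-fold apart and the median difference was 0; with 3.25% of all genes 2-fold apart, so short a list shows nothing particular to it. Sox9, a duct transcription factor whose protein Fbw7 can target, had the highest difference, 7.29 against 8.17 (0.88), followed by the Krüppel-like factor Klf5 (0.52). Nfe2l1, a regulator of proteasome genes, had the lowest (-0.44). Myc read 8.74 and 8.73, Jun 9.58 and 9.60, and Ccne1, the cyclin E1 gene, was below the floor on both arrays (5.13 and 4.87). Of 30 genes of ribosome making that Myc is known to induce, 0 were 2-fold apart, with a median of -0.01 as deposited and 0.03 after quantile normalization.

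Transcription factors of duct and foregut epithelium held several of the largest differences. Of 26 above the floor, 6 (against 1.43% of all genes) were at least 2-fold higher and 1 was lower. Prox1, a homeobox factor of pancreatic and hepatic progenitors, read 4.99 in beta, 5.01 in wild-type and 8.08 in deleted cells, at least 7.19-fold higher in the last. Ehf, an epithelial ETS factor, read 5.81, 5.93 and 8.92, a 7.97-fold difference between the ductal arrays. Nr5a2, a nuclear receptor of acinar and duct cells, read 6.21, 4.68 and 7.37, at least 4.39-fold higher in deleted than in wild-type cells.

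In each of these 3 genes the deleted array was the highest, and wild-type cells read Prox1 and Nr5a2 below the floor. Hhex, a homeobox factor of foregut endoderm, was at least 4.02-fold higher (5.20 against 7.24). Onecut1, a cut-homeobox factor of duct development, was 2.94-fold higher (5.59 against 7.15) and Glis3, a zinc finger factor of duct and islet cells, 2.92-fold (1.55 on the log2 scale). The list was not uniform. Gata6 (8.65 and 8.63), Klf4 (8.51 and 8.43) and the Hippo effector Yap1 (6.64 and 6.63) hardly differed, Tfcp2l1 was identical at 6.07, and Trps1, a GATA-type repressor, was 3.48-fold lower (7.53 against 5.73), or -0.92 when its probe sets were averaged. Prox1 is also a lymphatic endothelial factor and was the only one of 11 endothelial genes above the floor past 2-fold; Flt4, another lymphatic gene, was identical at 5.34.

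Pcbd1, a pterin dehydratase that also serves as a transcription cofactor, read 5.27 in wild-type and 7.63 in deleted cells (5.11-fold), and Habp2, a secreted serine protease, 4.83 and 7.33 (at least 4.28-fold).

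Cell-cell contact genes of epithelium were higher in part. Of 28 junction genes above the floor, 5 were at least 2-fold higher (against 1.43% of all genes) and 0 lower, with a median difference of 0. Cdh1, E-cadherin, read 6.92 in beta, 6.54 in wild-type and 9.17 in deleted cells, a difference of 2.63 on the log2 scale between the ductal arrays. Epcam, an epithelial adhesion molecule, read 5.42 in both wild-type ductal and beta cells and 7.22 in deleted cells (3.49-fold). The tight junction gene Cldn7 was 3.04-fold higher, and Cldn8 and the desmosomal cadherin Dsc2 were at least 1.49-fold and 1.51-fold higher against the floor. These 5 are surface proteins that pair neighbouring cells. Other surface members differed little or were lower, such as F11r (0.05), Gja1 (-0.09) and Jam2 (-0.56). Among cytoplasmic members Ctnnb1, beta-catenin, was identical at 9.48, Ctnna1 read 8.34 and 8.27, and Tjp1, the scaffold of tight junctions, had the lowest difference of the list, -0.67. Of 26 genes of epithelial splicing and polarity, 1 was 2-fold higher, the membrane protease St14 (5.67 against 7.23), and the splicing factor Esrp1 read 4.49 and 5.29.

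Keratins of simple epithelium leaned one way. Of 7 above the floor, 6 were higher and 1 identical, with a median of 0.89. Krt23 (2.87-fold) and Krt18 (2.07-fold) passed 2-fold, while Krt8 (0.96), Krt14 (0.89), Krt7 (0.54) and Krt19 (0.41) did not. Several keratins are shared by duct and mesothelium; the 8 defining mesothelial markers were 4 higher and 4 lower, with 0 at 2-fold, and of a broader list of 35 mesothelial genes Krt18 alone was past it.

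Fluid transport genes split. Of 21 genes above the floor, 2 were at least 2-fold higher and 2 lower, against 1.43% and 1.81% of all genes. Kcnq1, a potassium channel subunit, read 5.25 in wild-type and 7.20 in deleted cells (3.87-fold), and its partner Kcne3 5.07 and 6.03. Fxyd3, a regulator of the sodium pump, was 2.14-fold higher and its relative Fxyd5 2.45-fold lower. Car4, a membrane-anchored carbonic anhydrase, read 9.51 in wild-type and 6.57 in deleted cells, 7.65-fold lower, while the beta cell array read 6.70. Here the wild-type array was the high one of the 3. Of the other members, the bicarbonate cotransporter Slc4a4 was identical at 8.04, the secretin receptor Sctr read 5.26 and 6.00 and the water channel Aqp1 differed by -0.51. Among 24 genes above the floor with the Kcn prefix, which takes in potassium channels and their subunits, 3 were 2-fold higher and 0 lower. Beside Kcnq1 these were Kcnk1 (3.93-fold) and Kcnk5 (at least 2.57-fold).

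Secreted and surface proteins of the duct held the largest number of differences among the duct lists. Of 45 above the floor, 17 were at least 2-fold higher and 0 lower, and the median was 0.59. Pigr, the receptor that carries immunoglobulins across epithelium, read 5.38 in beta, 4.44 in wild-type and 7.99 in deleted cells, at least 6.75-fold higher. Tm4sf4, a tetraspan membrane protein, read 5.31, 6.59 and 9.77, a 9.05-fold difference between the ductal arrays. Ambp, a protease inhibitor precursor, read 6.91, 6.28 and 9.22 (7.70-fold).

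In all 3 the deleted array was the highest of the series, and Pigr was below the floor in wild-type cells. The mucin Muc1 was 4.71-fold higher, the trefoil peptide Tff2 4.63-fold, the annexin Anxa13 3.92-fold, the growth factor receptor Fgfr3 3.10-fold and the surface glycoprotein Cd24a 2.79-fold. Other members did not follow. The receptor tyrosine kinase Met was identical at 8.64, Lcn2, an iron-binding lipocalin, read 8.94 and 8.83, and the epidermal growth factor receptor gene Egfr had the lowest difference of the list, -0.98. Dcdc2a (5.40-fold) and Pkhd1 (4.25-fold), which encode proteins of the primary cilium and are linked to duct and bile duct disease, were higher, but the cilium list as such was not: the other 20 of its 22 genes were under 2-fold and 14 of them, such as Ift88, were identical.

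**Figure D3:**
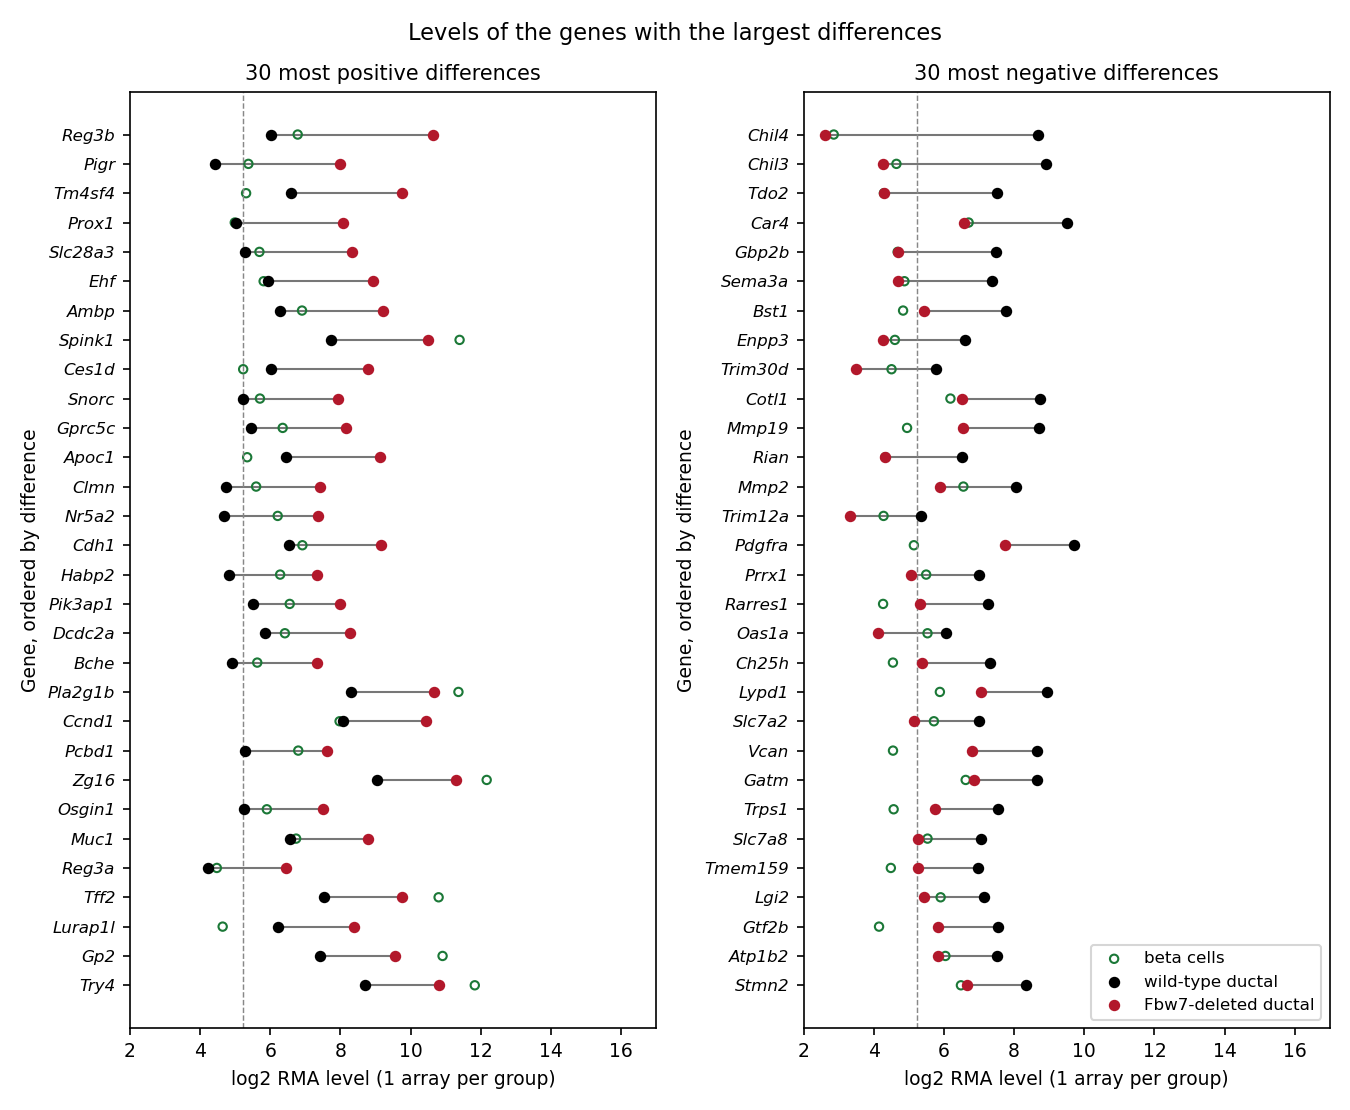
Log2 RMA levels (horizontal axis) of the 30 genes with the most positive (left) and the 30 with the most negative difference (right), ordered by difference; black is the wild-type ductal, red the deleted ductal and open green the beta cell array, and the dashed line is the wild-type floor. Acinar genes on the left, such as Spink1 (11.40) and Zg16 (12.17), read highest on the beta cell array. Duct genes such as Ehf and Muc1 read highest on the deleted array.

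Acinar enzyme genes were higher nearly throughout. Of 22 digestive enzyme genes above the floor, 19 were at least 2-fold higher and 1 lower, and the median was 1.64. Cpa1, a carboxypeptidase, read 12.30 in beta, 11.03 in wild-type and 12.38 in deleted cells (2.56-fold). Spink1, the trypsin inhibitor, read 11.40, 7.72 and 10.50 (6.85-fold), and Pla2g1b, the pancreatic phospholipase, 11.37, 8.31 and 10.67 (5.12-fold). Elastase, lipase and trypsin genes lay in the same range, as with Cela1 (3.63-fold), Cel (3.21-fold) and Try4 (4.33-fold); the trypsin genes are close copies whose probes can share signal. The wild-type ductal array was the lowest of the 3 for every enzyme gene above the floor other than Ctrc, and the deleted array read above the beta cell array only for Cpa1, Ctrb1 and Prss3.

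The other 3 enzyme genes were Ctrb1, Amy1 and Ctrc. Ctrb1, a chymotrypsin precursor, read 12.23 and 13.00, the amylase gene Amy1 6.09 and 6.83, and Ctrc, another chymotrypsin, read 7.57 in wild-type and 6.36 in deleted cells, 2.31-fold lower (-0.96 after quantile normalization). Among 28 genes of zymogen granules and acinar regulation, 10 were at least 2-fold higher and 1 lower, with a median of 0.40. The granule proteins Zg16 (4.74-fold), Gp2 (4.40-fold) and Sycn (4.01-fold) and the acinar disulfide isomerase Pdia2 (3.97-fold) were higher. Among members that did not differ, Xbp1, a factor of the unfolded protein response, was identical at 7.69, the granule GTPase gene Rab3d at 6.36 and Bhlha15, an acinar transcription factor, at 5.38. Gatm, which makes the creatine precursor in acinar cells, was 3.49-fold lower (8.66 against 6.86).

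Promoter sequence was examined for letters that acinar factors are known to bind, on both strands, over the 250 bases before each start, from RefSeq (GRCm38.p6). A promoter was matched for 8035 of the 10035 genes, 97 of the higher and 140 of the lower ones. The hexamer CACCTG (reverse complement CAGGTG), an E-box that the acinar factor Ptf1 can bind, was in 11 of 17 enzyme promoters (64.7%), in 41.2% of the higher and 15.7% of the lower genes with a promoter, against 18.3% of all genes above the floor and 19.4% of all 27025 promoters in the table. The motif CAAGGNCA (TGNCCTTG), known for Nr5a2, was in 6 of the 17 (35.3%), in 12.4% of the higher and 5.00% of the lower genes, against 5.05% above the floor and 6.33% of all promoters. Neither motif contains the other. The hexamer was not particular to enzyme genes: it was in 11 of 32 promoters of duct secreted and surface genes (34.4%) and in 2 of 21 of fibroblast genes (9.52%). Ptf1a, which encodes a part of Ptf1, was below the floor on both ductal arrays. The motifs were chosen after their shares had been seen and more were looked at than are given, so these shares describe the promoters and test nothing; a match shows no binding. Examples of the E-box in capitals in enzyme promoters, 5′ to 3′ on the gene's strand, are:

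Cela1: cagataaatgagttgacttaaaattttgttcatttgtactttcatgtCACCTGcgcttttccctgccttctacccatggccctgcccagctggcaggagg

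Cela3b: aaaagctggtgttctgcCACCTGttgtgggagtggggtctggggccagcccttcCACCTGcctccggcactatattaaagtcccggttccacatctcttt

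Pnliprp2: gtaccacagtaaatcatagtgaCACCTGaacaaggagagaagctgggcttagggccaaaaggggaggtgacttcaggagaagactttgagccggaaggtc

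The Cela1 stretch is chr15:100687977-100688076 and that of Cela3b chr4:137430521-137430620, both on the minus strand; that of Pnliprp2, a lipase-related gene (3.76-fold higher), is chr19:58759473-58759572 on the plus strand. The Nr5a2 motif is shown in a duct gene and an enzyme gene, in capitals on either strand:

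Ambp: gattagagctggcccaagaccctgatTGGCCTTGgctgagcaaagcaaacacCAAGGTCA

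Ctrl: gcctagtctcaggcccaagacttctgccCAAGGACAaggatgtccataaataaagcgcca

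Both end at the base before the start, at chr4:63154173-63154232 and chr8:105933863-105933922, on the minus strand. Ctrl, a chymotrypsin-like protease, read 10.20 in wild-type and 11.82 in deleted cells (3.07-fold).

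Reg genes, which encode small lectins of the exocrine pancreas and gut, were higher where they passed the floor. Of 7 measured, 6 were above the floor, Reg3a and Reg3g among them through the deleted array alone. These 6 were at least 2-fold higher, with a median of 1.92, and 5 were with levels raised to the floor. Reg3b, an antimicrobial lectin, read 6.78 in beta, 6.03 in wild-type and 10.64 in deleted cells, 24.4-fold higher in the last and the most positive difference of all genes above the floor. Reg1 (12.56, 10.24 and 11.87) and Reg2 (11.54, 9.77 and 11.62), abundant acinar products, differed by 3.10-fold and 3.63-fold between the ductal arrays. On the beta cell array Reg1 and Reg2 were high, while Reg3a (4.48) and Reg3g (4.45) lay below its floor. Between the ductal arrays Reg3a and Reg3g were at least 2.32-fold and 1.36-fold higher against the floor. Reg3b and Reg3g lie near each other on chromosome 6, and their promoters are shown with the longest run they share, 20 bases that end at the base before the start, in capitals:

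Reg3b: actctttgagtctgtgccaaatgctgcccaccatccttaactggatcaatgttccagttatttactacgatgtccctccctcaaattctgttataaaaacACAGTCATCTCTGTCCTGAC

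Reg3g: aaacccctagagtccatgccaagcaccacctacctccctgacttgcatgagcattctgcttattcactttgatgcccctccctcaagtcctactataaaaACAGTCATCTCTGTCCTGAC

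They are chr6:78370765-78370884 on the plus strand and chr6:78468875-78468994 on the minus strand.

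Genes known from hepatocytes and bile ducts were partly higher. Of 15 above the floor, 5 were at least 2-fold higher and 2 lower, against 1.43% and 1.81% of all genes, with a median of 0.61. Slc28a3, a nucleoside transporter, read 5.69 in beta, 5.29 in wild-type and 8.34 in deleted cells (8.32-fold), and Ttr, the thyroid hormone carrier transthyretin, 9.24, 7.35 and 9.44 (4.25-fold). Alb, the albumin gene, read 5.34 and 6.17. Tdo2, the liver enzyme that opens the tryptophan ring, read 7.51 in wild-type cells and 4.29 on both other arrays, at least 4.81-fold lower in deleted cells, and Cyp7b1, a sterol hydroxylase, was 3.15-fold lower. Among 27 genes of foreign compound metabolism, 3 were higher and 1 lower, against 1.43% and 1.81% of all genes. The carboxylesterase Ces1d was 6.77-fold and the monooxygenase Fmo2 2.19-fold higher, and the cytochrome Cyp1b1 was 2.77-fold lower (10.60 against 9.13). Apoc1, an apolipoprotein, was 6.46-fold higher (6.44 against 9.13).

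Islet hormone transcripts stayed near the floor on the ductal arrays. Of 8 endocrine markers, 4 were tested above the floor, and these 4 read higher in deleted cells, with a median difference of 0.45 and 0 past 2-fold. Ins2 read 11.04 in beta, 5.31 in wild-type and 5.87 in deleted cells and Sst 11.04, 5.06 and 5.40. Gcg, the glucagon gene, read 4.77 and 5.75 in ductal cells. Neurog3, the factor that starts endocrine differentiation, read 4.20 in both ductal groups, below the floor. Of 14 islet genes above the floor, 3 were at least 2-fold higher: Ttr and Hhex, given above, and the glucose transporter Slc2a2 (5.64 against 6.90). The other 11 were under 2-fold, among them the hormones and Isl1, an endocrine and mesenchymal homeobox factor, which was lower (6.21 against 5.41). Counted by sign, the 14 islet genes had 9 higher, 2 lower and 3 identical, with a median of 0.30.

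**Figure D4:**
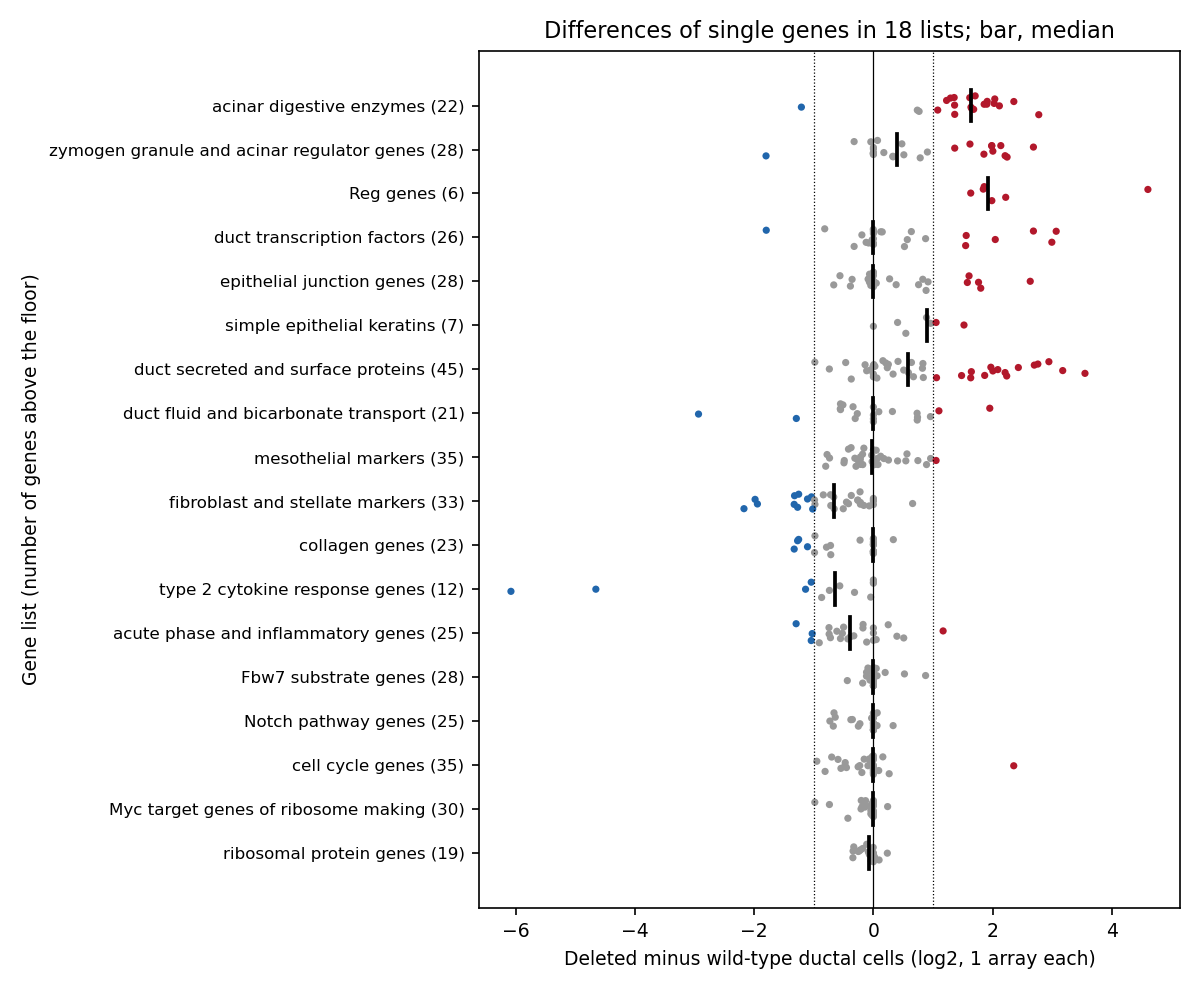
Difference of each gene above the floor between deleted and wild-type ductal cells (horizontal axis, log2, 1 array each) for 18 gene lists (vertical axis, number of genes in brackets); red and blue points are past 2-fold, dotted lines mark 2-fold and black bars the list medians. Acinar, Reg and duct surface genes lie to the right, fibroblast genes mostly to the left, and Fbw7 substrate, Notch and Myc target genes around 0.

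Fibroblast genes were lower in part. Of 33 fibroblast and stellate cell markers above the floor, 10 were at least 2-fold lower (against 1.81% of all genes) and 0 higher, with a median of -0.66; after quantile normalization 7 were at least 2-fold lower. Pdgfra, a growth factor receptor of mesenchyme, read 5.14 in beta, 9.71 in wild-type and 7.73 in deleted cells (3.96-fold). Mmp2, a gelatinase, read 6.55, 8.06 and 5.89 (4.51-fold), and Prrx1, a mesenchymal homeobox factor, 5.49, 6.99 and 5.05 (at least 3.37-fold).

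The wild-type array was the high one of the 3 in each. Fn1, fibronectin, was 2.50-fold lower (11.44 against 10.12), Timp2, a metalloproteinase inhibitor, 2.39-fold and the collagen chains Col1a2 and Col1a1 2.51-fold and 2.15-fold. Other mesenchymal genes differed little: Dcn, decorin, read 11.98 and 11.76, S100a4 10.04 and 9.82, and Gas1 9.10 and 9.04. Of 23 collagen genes, 4 were 2-fold lower (against 1.81% of all genes), all chains of types I and VI. Identical or higher were 13, including the basement membrane chains Col4a1 (6.54) and Col4a2 (6.09). Of 19 laminins, nidogens and integrins, 0 were 2-fold apart. The proteoglycan Vcan (3.58-fold) and the protease Mmp19 (4.56-fold) were also lower.

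Among 26 genes of epithelial to mesenchymal transition, 3 were at least 2-fold lower (against 1.81% of all genes) and 0 higher. These were Mmp2, Fn1 and Cdh2, N-cadherin (6.53 against 5.22, at least 2.45-fold). The factors that drive the transition moved less, with Zeb2 at -0.68, Zeb1 at -0.61, Twist1 at -0.26, Snai1 at -0.07 and Snai2 identical at 5.42. Vim, vimentin, read 10.67 and 10.16.

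The most negative differences were of chitinase-like genes. Chil4 read 2.86 in beta, 8.69 in wild-type and 2.61 in deleted cells, and Chil3 read 4.64, 8.91 and 4.25. Both are secreted lectins best known from macrophages and airway epithelium in type 2 immune responses. With the deleted level set to the floor, their differences were -3.45 and -3.67, so that Chil3 was at least 12.7-fold lower. Chil1, their relative on another chromosome, went the other way, 10.82 against 11.30. Chil3 and Chil4 are close copies whose probes can share signal, and the promoters show their likeness, with the longest shared run of 25 bases in capitals (91 to 67 bases before the start in Chil3, 120 to 96 in Chil4):

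Chil3: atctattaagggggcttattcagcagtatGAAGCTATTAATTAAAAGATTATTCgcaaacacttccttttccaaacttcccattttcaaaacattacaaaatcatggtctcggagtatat

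Chil4: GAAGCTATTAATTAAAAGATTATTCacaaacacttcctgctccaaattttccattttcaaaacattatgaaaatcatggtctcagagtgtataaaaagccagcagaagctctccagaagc

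They are chr3:106167565-106167684 and chr3:106219480-106219599, both on the minus strand. Macrophage markers were low beside these genes: Adgre1 read 3.10 and 3.12, below the floor on both ductal arrays, and the summed level of the 8 markers was 7.79 in wild-type and 7.74 in deleted cells. A broader list of 14 macrophage genes above the floor had 3 lower, which were Chil3, Chil4 and Fn1. Of 4 leukocyte genes above the floor in a broader list, 1 was lower, the class II antigen gene H2-Ab1 (7.67 against 6.64, or -0.80 after quantile normalization), and of the red cell, nerve and adipocyte genes the fatty acid binding gene Fabp4 was (7.47 against 6.37). Of 12 genes of the type 2 cytokine response, 4 were at least 2-fold lower (against 1.81% of all genes), with a list median of -0.65. These were Chil3, Chil4, the receptor chain Il4ra (8.95 against 7.82) and the alarmin Il33 (7.93 against 6.88). Only Chil3 and Chil4 of the 4 stayed past 2-fold after quantile normalization. Ccl24 was identical at 6.30.

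Inflammatory and interferon genes differed gene by gene. Of 25 acute phase and inflammatory genes, 3 were at least 2-fold lower and 1 higher, against 1.81% and 1.43% of all genes. The median was -0.39, and 1 was lower and 1 higher after quantile normalization. The deposited values gave as lower the chemokine Ccl7 (10.02 against 8.72), haptoglobin Hp (8.55 against 7.52) and Il33, and Crp on the other side (at least 1.72-fold). Saa3, a serum amyloid, read 11.79 and 11.36, and Il6 was identical at 7.91. Of 29 interferon-induced genes, 2 were lower and 1 higher, against 1.81% and 1.43% of all genes, and 10 were identical. With levels raised to the floor 1 was lower and 1 higher, and so few calls show nothing particular to the list. Gbp2b, a guanylate-binding GTPase, read 4.68 in beta, 7.48 in wild-type and 4.69 in deleted cells (at least 4.74-fold lower), and Oas1a, an antiviral enzyme, 5.53, 6.06 and 4.12. Their relatives did not follow: Gbp3 read 7.51 and 7.38, Gbp7 was identical at 7.16 and Oas2 at 7.21. Ifit3 was just past 2-fold higher (7.25 against 8.25).

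Signalling and growth lists had 0 or 1 gene each past 2-fold, near the 3.25% of all genes. Of 25 Notch pathway genes, 0 were 2-fold apart: Hes1, the Notch target, was identical at 6.92, Notch2 at 7.62 and Jag1 at 6.06, and Psen2, a subunit of the protease that releases Notch, had the lowest difference (-0.73). Of 29 Hippo pathway genes and Yap targets, 1 was higher, Ccn1 (8.68 against 9.69), while Ccn2 was identical at 6.29. Of 29 Wnt and Bmp pathway genes 0 were 2-fold apart; Id2, an inhibitor of helix-loop-helix factors, had the highest difference (0.98), and Wnt5a the lowest, just short of 2-fold (6.98 against 5.98). Of 33 semaphorin and guidance genes 1 was lower: Sema3a, a repulsive guidance factor, read 4.87 in beta, 7.38 in wild-type and 4.68 in deleted cells, at least 4.40-fold lower.

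In the cell cycle list, 1 of 35 genes was 2-fold apart. Ccnd1, cyclin D1, which opens the way into S phase, read 7.98 in beta, 8.08 in wild-type and 10.44 in deleted cells, 5.12-fold higher in the last. Ccnd2 and Ccnd3 were identical at 7.38 and 6.97. Genes that mark dividing cells did not go with it: Mki67 read 6.83 and 6.81, Top2a 7.19 and 7.13, Pcna 9.19 and 9.28, and the mitotic kinase Cdk1 6.87 and 6.06. Of 29 sterol and fatty acid synthesis genes 0 were 2-fold apart, with Fads1 (0.75) highest and Elovl6 (-0.81) lowest. Of 37 early response genes that tissue dissociation is known to induce, 1 was higher, Ccn1, and 16 were identical, among them Fos at 9.48 and Fosb at 8.94.

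Reference transcripts were level with 1 exception. Of 13 reference genes 1 was lower, the glycolytic enzyme gene Pgk1 (8.72 against 7.68, or -0.81 after quantile normalization), and Actb read 12.62 and 12.38, Hprt 8.42 and 8.36. Of 19 ribosomal protein genes 0 were 2-fold apart. Xist, the X-inactivation RNA, read 8.68 and 8.84, and the 5 measured Y-linked transcripts were below the floor on both ductal arrays.

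Grouped by symbol prefix, 64 families had 5 or more genes above the floor, and 32 of them held a gene past 2-fold. With 3.25% of all genes 2-fold apart and up to 175 genes in a family, these counts show nothing particular to the families. In 9 families such genes were only higher, in 21 only lower and in 2 in both directions. Genes with the Slc prefix, mainly solute carriers, were the largest family with calls in both directions. Of 174, 5 were higher and 4 lower, against 1.43% and 1.81% of all genes. The sodium-glucose transporter Slc5a1 was at least 2.67-fold higher, and the amino acid transporters Slc7a8 (3.42-fold), Slc7a2 (at least 3.42-fold) and Slc1a5 (2.83-fold) were lower. Genes with the Il prefix, which takes in interleukins and their receptors, had 3 lower and 0 higher of 28. The third beside Il33 and Il4ra was the receptor Il22ra1 (8.38 against 7.36). None of these 3 stayed past 2-fold after quantile normalization (Il33 -0.81, Il4ra -0.92, Il22ra1 -0.78), and another probe set of Il22ra1 differed by -0.09.

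Position along the genome was examined because the floxed gene lies on chromosome 3. Of 480 genes there, 2-fold was passed by 10 (2.08%) on the higher and 14 (2.92%) on the lower side. The lower share ranged from 0.804% on chromosome 11 to 3.00% on chromosome 1. Chromosome 3 held 4 of the 15 genes at least 4-fold lower in all (0.149% of genes above the floor). They were Chil4, Chil3, Tdo2 and Gbp2b, which are 4 of the 5 most negative differences. The chromosome also held 4 of the 41 genes at least 4-fold higher, and 480 of the 10035 genes above the floor. Of the 5 nearest genes above the floor on each side of Fbxw7, 0 of 10 were 2-fold apart, from Lrba (-0.42) to Rps3a1 (0.40), and 6 were identical.

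A little farther out, 3 of the nearest 20 genes were lower and 0 higher, against 1.81% and 1.43% of all genes. These were Tdo2 and its neighbours Ctso, a cathepsin (7.39 against 6.34), and Gucy1a1, a subunit of the nitric oxide receptor (8.62 against 7.47), which stand 8 to 10 genes from Fbxw7 when genes above the floor are counted, and Pdgfc, next in order, was just past 2-fold higher (5.44 against 6.44). Of the nearest 100 genes, 3 were higher and 4 lower (7% apart, against 3.25% of all genes). Chil3 and Chil4 are adjacent to each other and 193 and 194 such genes away, and Gbp2b is 305 away beside Gtf2b, a general transcription factor (3.27-fold lower). The backcrossing of the floxed allele beyond the C57BL/6 label is not given here, and its part in these differences was not tested.

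**Figure D5:**
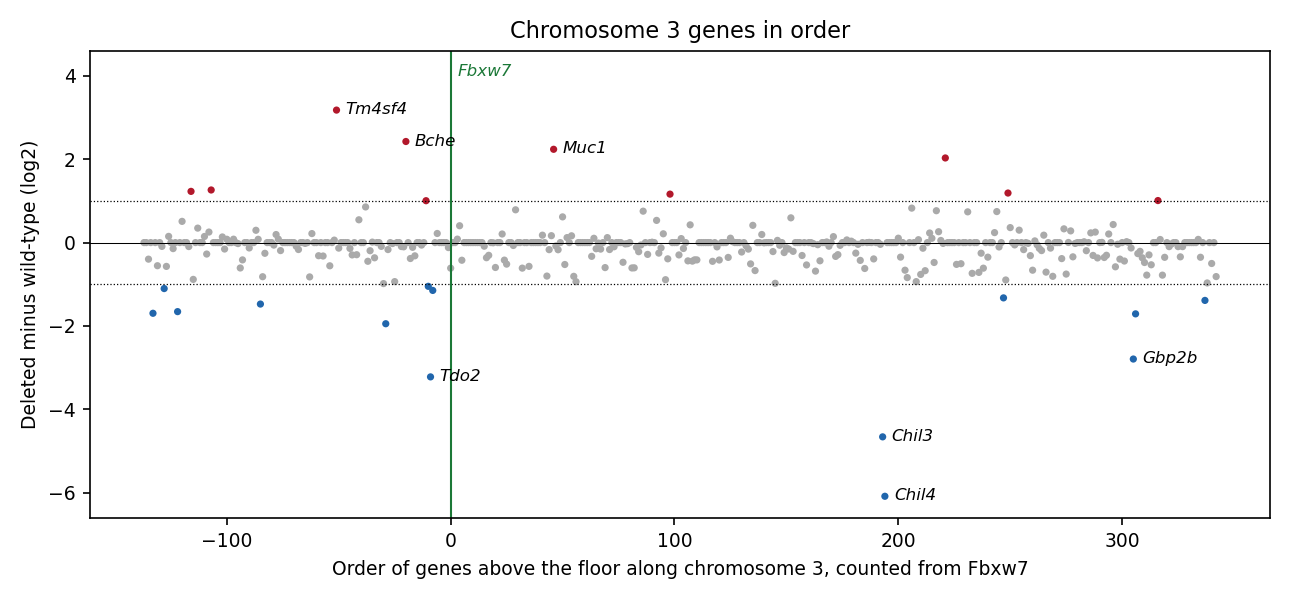
Difference between deleted and wild-type ductal cells (vertical axis, log2, 1 array each) of 480 genes above the floor on chromosome 3, in the order of these genes counted from Fbxw7 (horizontal axis, green line at 0); red and blue points are past 2-fold. Tdo2 and its neighbours lie close to Fbxw7, while Chil3, Chil4 and Gbp2b lie far from it.

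At the threshold itself the order of genes carries no weight. Just inside 2-fold on the higher side were Ifit3, Pdgfc, Slc6a6 and Ccn1 (7.25 against 8.25 for Ifit3, 8.68 against 9.69 for Ccn1). Just outside were Cat (0.99), the catalase gene, Musk (0.99), Fam229b (0.99) and Id2 (0.98). On the lower side Srsf9 (7.37 against 6.37), Zbtb33, Bscl2 and Trappc2l were inside and Cd302, Lgmn (9.03 against 8.03), Wnt5a and Tmx1 outside.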

How the data were processed

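Each of the 3 cell pools gave 1 array. The deposited values are log2 levels per probe set, made by the authors with RMA per the submitters' processing notes; the version and the arrays fitted together are not given here. Of 35556 probe sets, 21789 had 1 gene in the platform annotation, and 21698 of those matched a RefSeq gene of GRCm38.p6. These gave 19938 genes, of which 999 had further probe sets. Differences, folds and counts were computed with matplotlib 3.10.9, statsmodels 0.14.6, pandas 2.3.3, numpy 2.4.6 and Python 3.11.15. The probe set choice, floor, fold calls and quantile normalization were tested on simulated data, large known changes put into the wild-type values. That check did not cover identical levels, lists, promoters or positions. With 1 array per group there is no test and no p-value, and the number of arrays limits the precision.

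Members and gene lists were chosen with earlier results of these data known. Named genes are Fbxw7 and its 5 nearest genes above the floor on each side, the 30 largest differences each way (without predicted, RIKEN, LOC and BC genes, chemosensory receptors, small RNA and antigen receptor genes), list and prefix family members past 2-fold, each list's 3 highest and 3 lowest differences and up to 3 highest levels, marker genes, the 4 genes on each side of 2-fold, and Cpa1, Ccne1, Jun, Myc, Hes1, Krt19, Sox9, Neurog3, Sst, Gcg and Ins2. Other genes named were chosen after their values were seen. Alternatives were other floors and fold thresholds, quantile normalization, centring, a loess trend (span 0.3), other choices of probe set and levels raised to the floor; leaving out identical genes was chosen after seeing the data.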

Additional observations from a re-analysis of the deposited data

How the results depend on the processing

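The count of genes at least 2-fold higher stayed between 116 and 150 without a floor, with it at the 75th percentile, and with quantile normalization, centring, a loess trend, other probe set choices, levels raised to the floor and identical genes left out. It was 282 at 1.5-fold and 41 at 4-fold. The count at least 2-fold lower was 728 at 1.5-fold, 15 at 4-fold and 92 after quantile normalization, and between 156 and 188 otherwise. Of 61 genes (Fbxw7 and the 30 largest differences each way), 0 changed sign and 4 fell under 2-fold in some setting: Oas1a (-0.82), Trim30d (-0.52) and Trim12a (-0.09) with levels raised to the floor, and Trps1 (-0.92) with probe sets averaged; the first 3 follow from the floor itself. All of the 61 but Fbxw7 were picked for their large differences, so that they kept their sign says little. With the floor at the 75th percentile 57 of the 61 were left. Genes nearer to 2-fold were lost more often. After quantile normalization 137 of the 144 higher and 92 of the 182 lower genes were still past it. Medians near 0 of the mesothelial, Myc target, reference and ribosomal lists changed sign under quantile normalization or the loess trend. No paired analysis was possible because each group is 1 array, and no replicate could be left out for the same reason.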

Other observations

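Further gene groups were assembled after their values had been seen. Lysosomal genes leaned lower: of 39 above the floor, 31 read lower in deleted cells, 1 higher and 7 identical, with a median of -0.36. At least 2-fold lower were 7 (against 1.81% of all genes), and 4 after quantile normalization. Among the 7 were the acid lipase Lipa (7.98 against 6.39), the mannosidase Man2b1 (9.08 against 7.68), the galactosidase Glb1 (7.90 against 6.63) and the cathepsin Ctsl (10.45 against 9.42). The membrane proteins Lamp1 (9.37 against 9.11) and Lamp2 (9.10 against 8.95) differed less. Glycolysis and hypoxia genes had 7 of 29 at least 2-fold lower (against 1.81% of all genes), 1 after quantile normalization, and a median of -0.33. They included Ldhb (8.43 against 7.00), the oxygen sensor Egln3 (8.78 against 7.64) and Bnip3, while Vegfa, the vascular growth factor, read 7.57 and 7.60 and Aldoc was higher (6.19 against 7.10).

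Prostaglandin genes had 4 of 12 at least 2-fold lower (against 1.81% of all genes). These were the synthase Ptges (9.12 against 7.48), the receptor Ptger3 (7.92 against 6.53), the phospholipase Pla2g4a and the transporter Slco2a1. After quantile normalization 2 were. Hpgd, which breaks prostaglandins down, was at 0.52. Small nuclear and nucleolar RNA genes went the other way, with 7 of 34 at least 2-fold higher and 1 lower under both scalings. Over all genes the shares were 1.43% and 1.81%. Snord118 read 5.77 and 7.35, Rnu12 5.54 and 7.09, and Snord57 6.35 and 4.43. Among the 7 higher genes were also the RNA subunits Rpph1 (10.73 against 12.36) and Rmrp (7.81 against 8.90) of ribonucleases.

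Probe sets with several genes or none in the annotation differed more often than genes did. Of 4804 above the floor, 356 (7.41%) were at least 2-fold higher and 360 (7.49%) lower. Further probe sets of a called gene did not always follow it: Cep350 was 2.26-fold higher on the one used, and another read -0.07.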
